A study of Saccharomyces cerevisiae with 6 samples.

Results

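The SOD2 cassette integration array compared the barcodes of homozygous diploid deletion strains of Saccharomyces cerevisiae between a pool transformed with a linear sod2Δ::URA3 cassette and a pool transformed with the circular plasmid pRS416. It is 1 of the 6 arrays of the series, without a replicate, and its strains were chosen as all those with a value in its column of the deposited table. This gave 4290 strains of the 4303 in that table, 3829 of them with a gene name. The other arrays are a like array for a cassette at ISU1 and 4 expression arrays of BY4741 cells with or without FUN30. In both pools every strain carries a homozygous deletion of its own gene, and transformants were selected on solid medium lacking uracil for 2 days at 30 °C. The cassette pool was labelled with Cy5 and the plasmid pool, the control, with Cy3. The labels name a pooled library, so each strain was measured in a mixture and the labels do not give how many transformants stand behind a strain.

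A linear cassette enters the yeast genome through homologous recombination between its ends and the chromosome. Recombination proteins pair the cassette's ends with the target, and nucleases remove ends and flaps that do not match. The circular plasmid carries its own origin and needs no such step, so it serves as a measure of how well a strain takes up DNA, grows and forms colonies without uracil. SOD2 encodes the manganese superoxide dismutase of mitochondria. The cassette replaces it with URA3, which restores uracil synthesis.

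The deposited values are ratios of the 2 channels, with no statement of which pool was divided by which. Each strain is therefore placed only relative to the array median, no strain is said to integrate the cassette better or worse, and the high and low poles would change places if the ratio ran the other way. Each strain can carry 2 barcodes, called tags here. Of the 4290 strains, 3788 had a value for both tags and 502 for 1 tag. Values below are log2 ratios minus the array median, averaged over the tags, and a fold is the distance from the median. The array median ratio was 1.06, and ratios ran from 0.08 to 13.57. The SD of 1 tag around its strain mean was 0.28 (log2), which gives a mean of 2 tags an SE of 0.20. That error covers the tags on 1 array only, not a repeat of the transformation, so no p-value is given.

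The strain values were wider above the median than below it. Their SD was 0.53, and the quartiles lay at −0.26 and 0.30. At a distance of 2-fold or more, 203 strains lay above the median, which is 4.73% of those measured, and 59 lay below it, which is 1.38%. Among these, both tags passed 2-fold on their own in 109 of the 156 high strains with 2 tags and in 26 of the 41 low strains with 2 tags. All strains of both poles with 2 tags had both tags on the same side of the median. This follows from choosing the poles on the mean of the tags and is no check on them. A mean past 2-fold from tags on opposite sides would need tags more than 2 (log2) apart, and the widest gap was 1.90. Beyond 3-fold there were 57 strains above and 10 below. Strains with 1 tag made up 23.2% of the high pole and 30.5% of the low pole, against 11.7% of all measured strains, and the part this plays in the poles was not tested. Across the 2-fold line lay SWC5 at 1.0000 and SMU2 at 0.9996 on the upper side, and SLI15 at −1.0008 and DTR1 at −0.9895 on the lower.

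**Figure D1:**
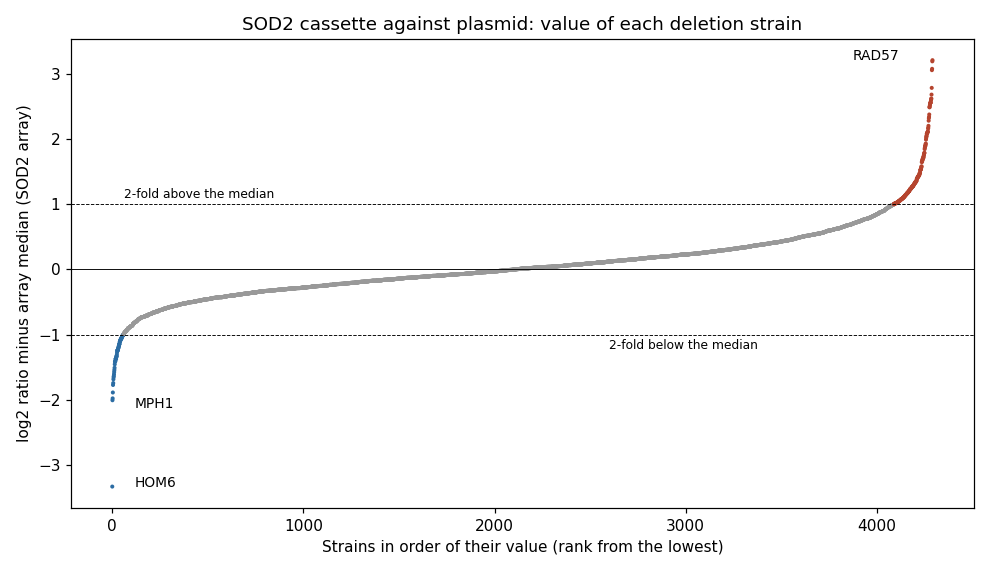
Value of each of the 4290 measured deletion strains on the SOD2 array (y axis, log2 ratio minus the array median) against its rank from the lowest (x axis, a count of strains). Each point is a strain, red at 2-fold or more above the median (203 strains) and blue at 2-fold or more below it (59 strains). The upper arm is longer in number of strains, and HOM6 stands apart at the bottom.

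The high pole was led by the strain lacking RAD57, whose product works with Rad55 in homologous recombination. Its tags had ratios of 7.03 and 13.57, a strain value of 3.20 or 9.21-fold above the median. AIM29, whose gene product is little characterised, followed with ratios of 10.68 and 7.23 and a value of 3.05. SWI4, the DNA-binding subunit of a G1 transcription factor, lay at 2.68 from ratios of 8.16 and 5.63. MDM20, a subunit of the NatB N-terminal acetyltransferase, lay at 2.62 from ratios of 7.16 and 5.90. All 4 strains had both tags more than 5-fold above an equal ratio, and their tags differed by 0.28 to 0.95 (log2).

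The next strains of the high pole covered unrelated functions. KRE1, needed for the β-glucan of the cell wall, had tag ratios of 7.18 and 5.84 and a value of 2.61. PPR1, the activator of pyrimidine synthesis genes, had 5.24 and 7.74 and a value of 2.59. SCP160, an RNA-binding protein of the endoplasmic reticulum, lay at 2.55, and BRE2, a subunit of the COMPASS histone methyltransferase, also at 2.55. AAT2, the cytosolic aspartate aminotransferase, lay at 2.48, the nuclear pore gene NUP170 at 2.34 and the AMP deaminase gene AMD1 at 2.32. The tags of NUP170 were far apart, with ratios of 3.28 and 8.73, and those of AMD1 were 3.64 and 7.66. Each tag of these 7 strains nevertheless lay above 3-fold of an equal ratio.

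The rest of the 20 highest named strains with 2 tags lay between 2.02 and 2.20. They were MEH1, YAF9, YNR068C, URA7, LEU9, RAD59, TAT1, GTR2 and RAD10. MEH1 and GTR2 belong to the vacuolar complex that signals amino acid supply to TORC1. URA7 encodes a CTP synthase, LEU9 an enzyme of leucine synthesis and TAT1 an amino acid permease. A further 12 named strains with 1 tag lay at least as high as the last of these. BUD27, a prefoldin-like protein, lay at 3.19 from a ratio of 9.65, and VCX1, a vacuolar calcium exchanger, at 3.07 from 8.91. The others were MMS1 (2.78), LDB7 (2.56), ARD1 (2.55), NUP188 (2.52), RSC1 (2.48), RAD54 (2.28), SAW1 (2.17), RAD55 (2.08), LSM1 (2.07) and PLC1 (2.04). With 1 tag each, these 12 values have no second measurement behind them.

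**Figure D2:**
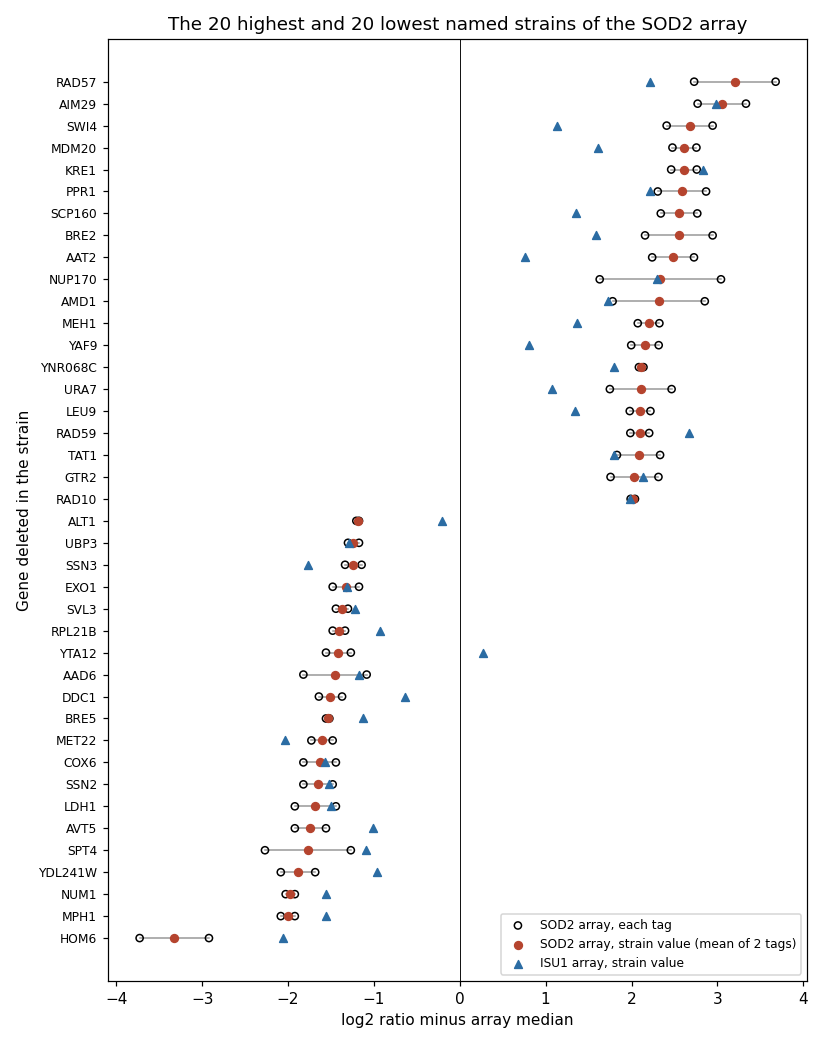
The 20 highest and the 20 lowest named strains with 2 measured tags. The x axis is the log2 ratio minus the array median, the y axis the gene deleted. Open circles are the tags on the SOD2 array, joined by a line, red points their mean and blue triangles the same strain on the ISU1 array. High strains run from 2.02 to 3.20 and low strains from −3.32 to −1.19, while YTA12 sits at 0.27 on the ISU1 array.

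Strains lacking homologous recombination genes lay above the median without exception among those measured. Of 9 strains in the RAD52 group and the Shu complex, 7 lay 2-fold or more above the median and 0 below, with a list median of 1.25, where 4.73% of all strains lay that high and the median of all strains was 0.01. RAD57 was the highest at 3.20, and its partner RAD55 lay at 2.08 from 1 tag with a ratio of 4.48. RAD54, a DNA translocase gene, lay at 2.28 from 1 tag with a ratio of 5.14, and its relative RDH54 lowest of the list at 0.77. RAD59, which anneals strands alongside Rad52, had tag ratios of 4.20 and 4.89 and a value of 2.10. The 4 Shu complex strains, which lack a complex that promotes recombination repair, formed a narrow group at CSM2 1.25, PSY3 1.07, SHU2 1.05 and SHU1 0.92.

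Genes that remove non-matching flaps formed a group as high as the recombination genes. RAD1 and RAD10 encode the nuclease that cuts 3′ flaps, SAW1 and SLX4 bring it to them, and MSH3 recognises the branched structure. In the list of this nuclease and its partners, 6 of 7 strains lay 2-fold or more above the median, and the list median was 1.65. Among all strains 4.73% lay that high. One of the 6 is RAD59, which the recombination list also holds. RAD10 had tag ratios of 4.36 and 4.21 and a value of 2.02, and RAD1 lay at 1.65. MSH3 lay at 1.43, and SLX4, whose tags had ratios of 3.23 and 2.24, lay at 1.34. SAW1 lay at 2.17 from 1 tag. The member within 2-fold was RAD14, which acts with Rad1 and Rad10 in nucleotide excision repair and lay at −0.14. Among the mismatch repair strains MSH3 alone passed 2-fold, and MSH6 lay at −0.74, PMS1 at −0.37, MLH2 at −0.32 and MLH3 at 0.18.

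Genes that act on joint molecules and on stalled replication lay on both sides. Of 13 strains for anti-recombinases and joint-molecule nucleases, 5 lay 2-fold or more above and 1 below, where 4.73% and 1.38% of all strains did. ESC2, a SUMO-like repair protein, lay at 1.46, SLX4 at 1.34, the helicase gene RAD5 at 1.20, the anti-recombinase SRS2 at 1.19 from 1 tag and the replication helicase RRM3 at 1.14. MPH1, a helicase that takes apart strand invasions, was the exception at −2.00. In the RAD6 pathway 3 of 10 strains passed 2-fold, all above, namely POL32 (1.74), a subunit of polymerase delta, and the ubiquitin ligase genes RAD18 (1.34) and RAD5. The translesion polymerase strains REV1, REV3 and RAD30 lay at −0.28, −0.05 and −0.04. Among the alternative clamp loaders ELG1 lay at 1.23 and DCC1 at 0.15. MMS1, an adaptor of the Rtt101 ubiquitin ligase, lay at 2.78 from 1 tag, while RTT101 itself lay at −0.21.

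Chromatin genes at the high pole came from a few complexes. Of the 16 strains for CAF-1, HIR and the H2A.Z exchange complex SWR1, 5 lay 2-fold or more above and 1 below, and the list median was 0.69. The shares of all strains were 4.73% above and 1.38% below. YAF9, a subunit shared by SWR1 and the acetyltransferase NuA4, lay at 2.16, and HTZ1, the H2A.Z gene itself, at 1.24 from tag values of 1.32 and 1.15. Among 8 strains of SWR1 subunits, grouped after their values were seen, 7 lay above the median and YAF9, BDF1 and SWC5 passed 2-fold. BDF1 did so from 1 tag. CAF-1, which deposits H3 and H4 behind the replication fork, had CAC2 at 1.41, MSI1 at 0.74 and RLF2 at 0.51. RSC, an essential nucleosome remodeller, had LDB7 at 2.56, RSC1 at 2.48 and RSC2 at 0.63, each from 1 tag. In SAGA, a coactivator, SPT8 lay at 1.78, SPT3 at 1.45 from 1 tag and GCN5, the acetyltransferase, at 0.96 from 1 tag. BRE2 stood alone in COMPASS, whose other 5 measured strains lay between −0.58 and 0.82. The transcriptional repressor UME6 lay at 1.58.

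Nuclear pore, protein acetylation and RNA decay genes added further members of the high pole, which held 4.73% of all strains. Of 18 strains for mRNA export and the nuclear pore, 3 passed 2-fold, all above, and these were NUP188, NUP170 and POM34 (1.27). NUP188 and NUP170 form part of the inner ring of the pore and POM34 part of its membrane ring. Of 18 strains for N-terminal acetylation, prefoldin and ribosome-bound chaperones, 5 passed, all above, with a list median of 0.48. That median was 0.14 when the tag nearer to the array median stood for each strain and 0.12 with the tags of the lower-numbered block. The 5 strains past 2-fold were BUD27 and ARD1, each from 1 tag, and MDM20, GIM4 (1.53) and NAT1 (1.48). ARD1 and NAT1 are the catalytic and the ribosome-binding subunit of NatA, whose remaining strain, NAT5, lay at 0.05 from 2 tags. The 3 NatC strains lay between 0.21 and 0.52. Prefoldin, which hands actin and tubulin to their chaperonin, had GIM4 at 1.53, PFD1 at 0.99 and YKE2 at 0.44. In tRNA modification and mRNA decay 5 of 37 strains lay 2-fold or more above and 0 below. LSM1 (2.07) and PAT1 (1.78), partners in decapping, each had 1 tag, as did the pseudouridine synthase gene DEG1 (1.65) and NOT3 (1.30), and MOD5, a tRNA modification enzyme, lay at 1.42 from 2 tags.

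By count alone, the nutrient signalling list held more high strains than the other lists measured. Of its 34 strains, 9 lay 2-fold or more above the median and 0 below, with a list median of 0.33. Among all strains 4.73% lay that high. The recombination and flap cleavage lists held larger shares, with 7 of 9 and 6 of 7 strains that high. The EGO complex and its Gtr GTPases, which tether TORC1 to the vacuole, were grouped after their values were seen. All 4 strains passed, with MEH1 at 2.20, GTR2 at 2.03, SLM4 at 1.69 and GTR1 at 1.23. The tags of SLM4 lay at 1.79 and 1.58, and those of GTR1 at 1.18 and 1.27, so that all tags of the complex passed 2-fold. GLN3, an activator of nitrogen-regulated genes, lay at 1.93. TCO89, a TORC1 subunit, and RTC1, a member of a complex that regulates TORC1, both lay at 1.43. The glucose receptor gene GPR1 and its G protein gene GPA2 lay at 1.05 and 1.09.

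Some strains at the high pole lack genes for the synthesis of pyrimidines or amino acids. Of 12 strains for pyrimidine synthesis and uptake, PPR1 and URA7 (2.11) lay 2-fold or more above the median, where 4.73% of all strains did, and the others lay between −0.71 and 0.44. In the amino acid lists the strains above 2-fold were LEU9 (2.10) and GCN1 (1.14, 1 tag) of 30 for arginine, lysine, histidine and leucine. The list of 24 for the aromatic and other amino acids held PRO1 (1.52), ARO1 (1.31, 1 tag) and TRP5 (1.12) above, and GCV3 (−1.27, 1 tag) below. PRO1 starts proline synthesis, and ARO1 and TRP5 serve the aromatic amino acids. Of the 21 strains for homoserine, threonine and methionine synthesis, 0 lay above. Beside the 4.73% of all strains, nothing about amino acid synthesis as a whole is read from such small counts. Cell wall strains lay on both sides, with 4 of 33 above and 1 below. KRE1 at 2.61 stood well apart from the mannosyltransferase gene MNN2 (1.33), the wall protein gene CCW12 (1.26) and VAN1 (1.02). The tags of MNN2 lay at 0.67 and 1.99, so that 1 of them was within 2-fold. In vacuolar protein sorting 6 of 35 strains lay 2-fold or more above and 0 below, led by SNF7 (1.53) and VPS4 (1.35), which form and take apart the membrane-bending ESCRT-III filament.

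**Figure D3:**
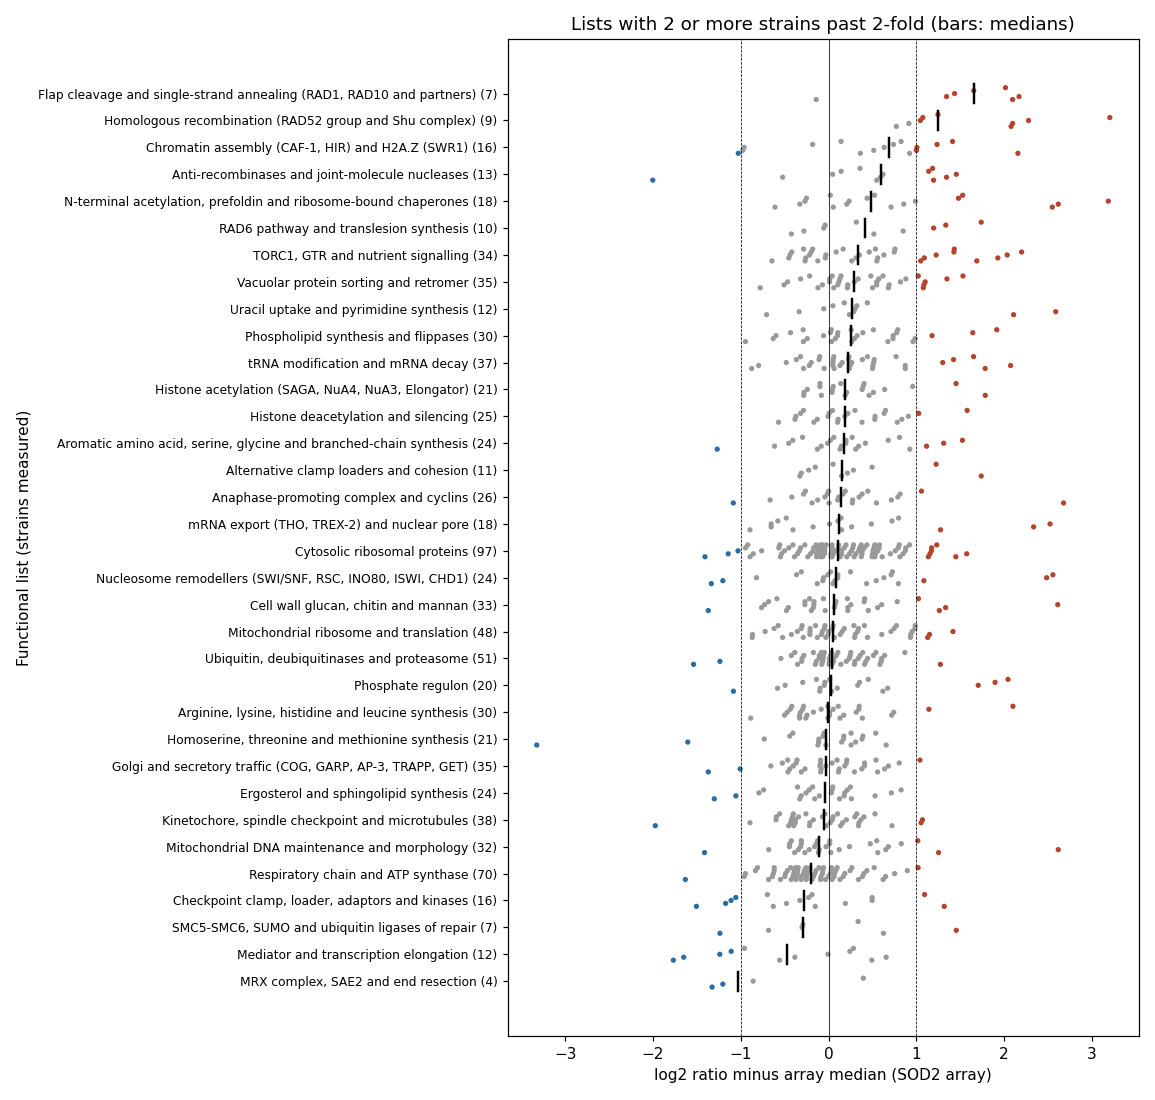
Strain values on the SOD2 array (x axis, log2 ratio minus the array median) for each functional list with at least 2 strains past 2-fold (y axis, with the number of strains measured). Each point is a strain, red or blue at 2-fold or more above or below the median, and the black bar is the list median. The flap cleavage and recombination lists lie highest, with medians of 1.65 and 1.25, and the end resection list lowest, at −1.03.

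The low pole was led by HOM6, which encodes homoserine dehydrogenase, an enzyme of threonine and methionine synthesis. Its tags had ratios of 0.14 and 0.08, a strain value of −3.32 or 10.0-fold below the median. The next strain was MPH1 at −2.00, from ratios of 0.28 and 0.25. NUM1, the cortical anchor of dynein and mitochondria, followed at −1.97 from ratios of 0.28 and 0.26. YDL241W, an uncharacterised ORF, lay at −1.88 and SPT4, a transcription elongation factor, at −1.77. The tags of SPT4 were 1.00 apart (log2), with ratios of 0.44 and 0.22.

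The remaining strains of the 20 lowest were, like those above, chosen among strains with both tags below the median. AVT5, a vacuolar transporter gene, lay at −1.74, LDH1, a lipid droplet hydrolase gene, at −1.68 and SSN2, a Mediator subunit, at −1.65. COX6, a subunit of cytochrome c oxidase, lay at −1.63 and MET22, a phosphatase needed for methionine synthesis, at −1.60. The Ubp3 cofactor BRE5 lay at −1.54 from ratios of 0.36 and 0.37, which are among the closest tags of the pole. DDC1, AAD6, YTA12, RPL21B, SVL3, EXO1, SSN3, UBP3 and ALT1 completed the 20 lowest, from −1.51 to −1.19. A further 10 named strains with 1 tag lay at least as low as the last of these. They were DIP5 (−1.41), ECM33, GET2 and FLC2 (each −1.37), PSP2 and SNF6 (each −1.34), YDC1 (−1.30), GCV3 (−1.27), MCH2 and FUN30 (each −1.20).

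Of the 4 measured strains lacking DNA end resection genes, 3 lay below the median. EXO1, the long-range exonuclease of break ends, had tag ratios of 0.47 and 0.38 and a value of −1.33. FUN30, the nucleosome remodeller that the series addresses, lay at −1.20 from 1 tag with a ratio of 0.46. SGS1, the helicase of the other resection route, had ratios of 0.51 and 0.67 and a value of −0.86, within 2-fold. SAE2, which starts resection together with the MRX nuclease, lay at 0.40, on the other side of the median. These were the 4 strains measured of the 11 genes listed, 2 of them 2-fold or more below the median, where 1.38% of all strains lay that low. The list for non-homologous end joining, which competes for the same ends, had none of its 6 measured strains past 2-fold, with a range from −0.17 to 0.42. It includes RTT107 (0.13), which the list of the Rtt101 ligase also holds and which is not a core end-joining gene.

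The strains of the checkpoint clamp and its loader, grouped after their values were seen, all lay low. The Rad17, Mec3 and Ddc1 proteins form the ring that is loaded at resected ends by a complex with Rad24. All 4 strains lay 2-fold or more below the median, where 1.38% of all strains did. DDC1 lay at −1.51 from ratios of 0.34 and 0.41, RAD24 at −1.11 and MEC3 at −1.06, and RAD17 at −1.17 from 1 tag. These 4 were the low members of a list of 16 checkpoint strains with a median of −0.28. RAD9, the adaptor that acts after the clamp, lay on the other side at 1.32 from ratios of 2.79 and 2.50, and the kinase gene DUN1 lay at 1.09. TEL1, CSM3, TOF1 and the 2 strains annotated to MRC1 lay between −0.33 and 0.50.

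Transcription genes of the low pole came mainly from the Mediator kinase module, which represses a set of nutrient and stress genes. The strains of the module were grouped after their values were seen. SSN2, the kinase gene SSN3 and its cyclin gene SSN8 lay at −1.65, −1.24 and −1.11, and SRB8, the remaining subunit gene, at −0.01. Both tags of SSN2 and SSN3 passed 2-fold, while those of SSN8 lay at −0.58 and −1.64. With SPT4 these made 4 low strains among 12 for Mediator and elongation, with 0 above 2-fold and a list median of −0.47. Among all strains 1.38% lay that low. The HIR chaperone, which places histones H3 and H4 outside replication, was also grouped after its values were seen. All 3 of its measured strains lay close to 2-fold below the median, with HIR3 at −1.03, HIR1 at −0.98 and HPC2 at −0.96. The H3 and H4 genes of 1 locus, HHT1 and HHF1, lay at −0.92 and −1.01, and those of the other locus, HHT2 and HHF2, at −0.59 and −0.22, the latter from 1 tag. The H2A and H2B strains lay between −0.04 and 0.19. The deubiquitinase UBP3 and its cofactor BRE5, at −1.24 and −1.54, were the 2 low strains of 51 in the ubiquitin list.

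**Figure D4:**
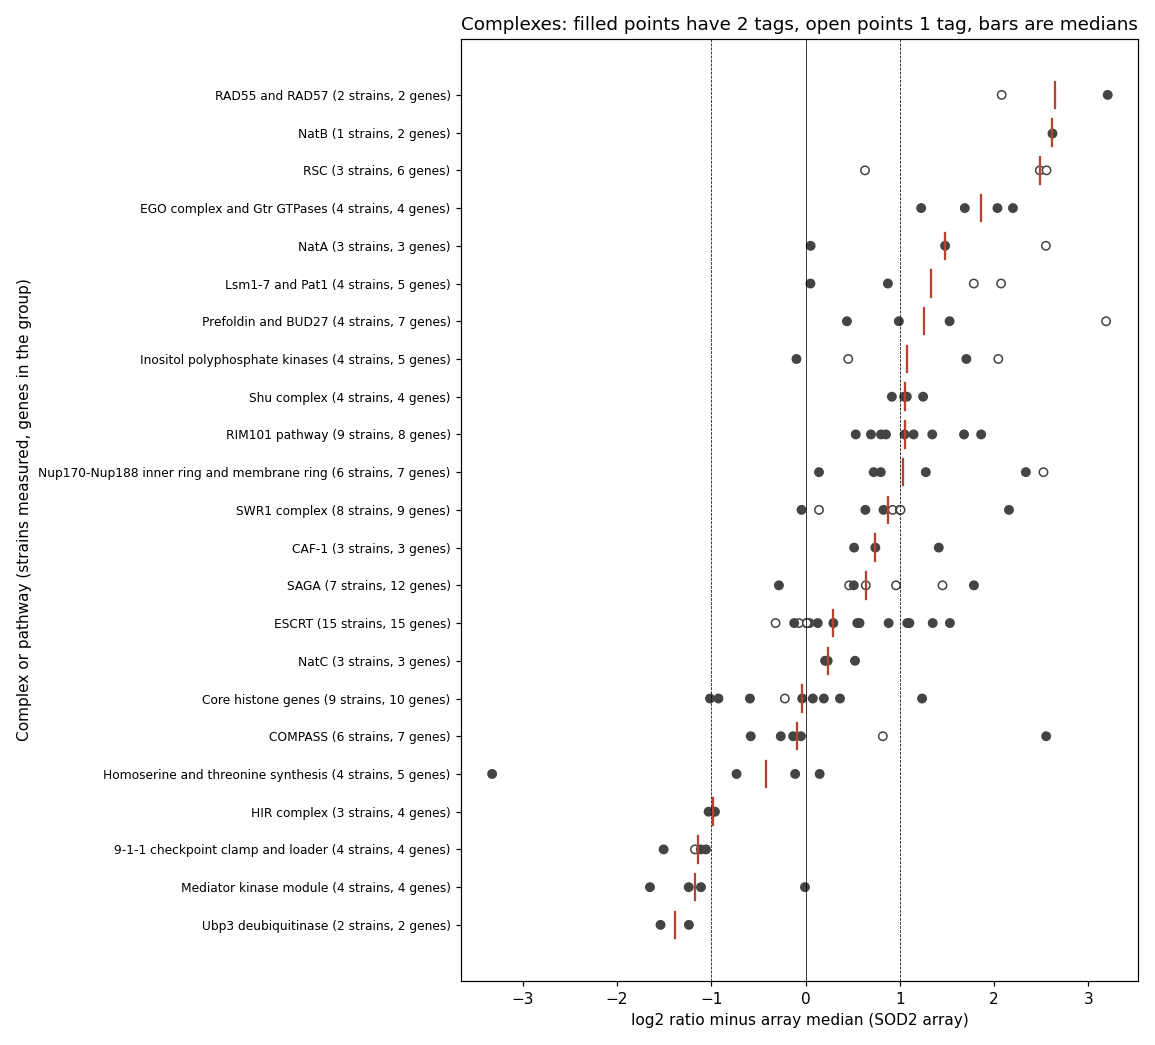
Every measured strain of 23 complexes and small pathways that were grouped after their values were seen. The x axis is the log2 ratio minus the array median on the SOD2 array, the y axis the complex. Filled points are strains with 2 tags, open points strains with 1 tag, and red bars are medians. The EGO complex, the Shu complex and CAF-1 lie wholly above the median, and the checkpoint clamp and the HIR complex wholly below it.

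Metabolic genes at the low pole, which held 1.38% of all strains, were scattered over pathways. None of the other measured strains of its own pathway lay with HOM6 at the low pole. HOM2, which acts just before it, lay at 0.15, THR1 at −0.73 and THR4 at −0.11, and HOM3 had no value. MET22 was the other low member of the 21 strains for homoserine, threonine and methionine synthesis, whose median was −0.03. COX6 was the 1 low strain of 70 for the respiratory chain and ATP synthase, where ATP17 lay at 1.02 and the list median at −0.20. In that list 47 strains lay below 0 and 23 above, against 2106 and 2184 of all strains. YTA12, a subunit of a mitochondrial protease, lay at −1.41. NUM1 was the 1 low strain of 38 for the kinetochore and microtubules, in which the dynactin gene ARP1 and the α-tubulin gene TUB3 lay above at 1.05 and 1.07. The iron permease gene FTR1 lay at −1.01, and HMG1 and YDC1 of sterol and sphingolipid synthesis at −1.06 and −1.30, the latter from 1 tag.

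Many lists lay near the share of all strains, 4.73% at 2-fold or more above and 1.38% below. No strain of purine, folate and thiamine synthesis (19 measured), of the actin patch and endocytosis (36) or of oxidant defence (33) passed 2-fold either way. The members farthest from the median were THI3, a regulator of thiamine genes, at 0.62, the tropomyosin gene TPM1 at 0.96 and SOD1, the cytosolic superoxide dismutase gene, at 0.81. The peroxisome, autophagy and glycolysis lists had 1 strain each past 2-fold of 28, 28 and 52. These were the thiolase gene POT1 (1.01), the autophagy conjugation gene ATG3 (1.25) and PFK26 (1.75), a kinase that makes a regulator of glycolysis. Among 97 strains of cytosolic ribosomal proteins 7 lay 2-fold or more above, led by RPL35B (1.57) and RPP1A (1.45), and 3 below, led by RPL21B (−1.41). Among 48 strains of the mitochondrial ribosome 3 lay above, with MRPL49 at 1.42. Of nucleotide and base excision repair, 1 of 20 strains passed, namely the apurinic endonuclease gene APN1 at 1.39.

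Smaller numbers of strains past 2-fold stood in other membrane, organelle and chromatin lists, against 4.73% above and 1.38% below among all strains. Among 30 strains for phospholipid synthesis and flippases 3 lay above and 0 below. These were ACB1, an acyl-CoA carrier gene, at 1.92 and DRS2, a flippase gene, at 1.64, each from 1 tag, and SCS2, a membrane contact site protein of the endoplasmic reticulum, at 1.18 from 2 tags. Golgi and secretory traffic had RGP1 at 1.04 and, on the other side, GET2 and the adaptor subunit APM1 (−1.01), of 35 strains. The vacuolar ATPase list had VOA1 at 1.17 among 6. Of 32 strains for mitochondrial DNA and morphology, 3 lay above and 1 below, with the import genes TIM18 and TOM70 at 1.25 and 1.02 beside MDM20 and YTA12. The 24 nucleosome remodeller strains held CHD1 at 1.08 with LDB7 and RSC1 above, and SNF6, a SWI/SNF subunit, with FUN30 below. SAP30, a subunit of the Rpd3 deacetylase complex, lay at 1.03 from 1 tag. SIC1, the inhibitor of S-phase cyclin kinase, lay at 1.06 and the ubiquitin ligase gene TOM1 at 1.27.

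Deletions beside the integration site were ordered by the RefSeq gene table. The strain lacking SOD2 itself had no value in the table. TDA3, the gene next to SOD2 on one side, lay at 1.32, or 2.50-fold above the median, with tag ratios of 3.48 and 2.02. On the ISU1 array the same strain lay at −0.01. On the other side of SOD2 the nearest measured strain, STP2, lay at 0.21. RPL27A, the nearest after TDA3, lay at −0.41 from 1 tag, and at 1.38 on the ISU1 array. Of the measured strains within 15 genes of SOD2, those other than TDA3 and ARD1 lay between −0.72 and 0.57. ARD1 lay at 2.55 on the SOD2 array and at 1.54 on the ISU1 array. At the other target, the ISU1 strain, lacking an iron-sulphur cluster scaffold of mitochondria, lay at −0.07 on the SOD2 array and at −4.32 on the ISU1 array. On the SOD2 array its neighbours GIP3 and ODC1 lay at 0.69 and −0.27.

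**Figure D5:**
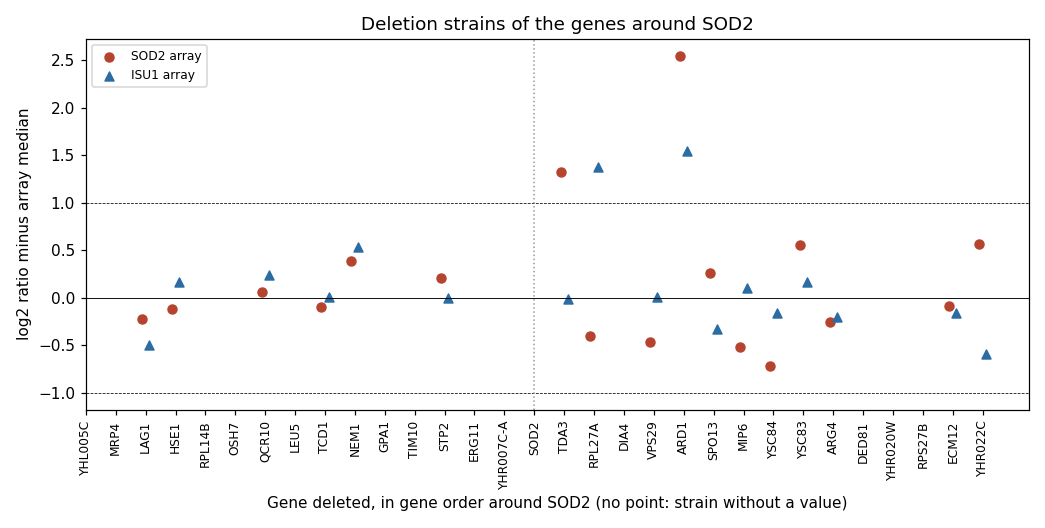
Deletion strains of the genes within 15 places of SOD2 in gene order (x axis) and their log2 ratio minus the array median (y axis). Red circles are the SOD2 array and blue triangles the ISU1 array, with no point where a strain had no value. TDA3, next to SOD2, is high on the SOD2 array (1.32) and at the median on the ISU1 array (−0.01), and ARD1 is high on both.

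Strains lacking neighbouring genes were set side by side. Among 2496 pairs of adjacent genes with values for both strains, 235 had at least 1 strain 2-fold or more above the median, and in 6 of these, 2.55%, both were. The 4.73% of all strains that lay that high is a share of single strains, not of such pairs, so the 2.55% cannot be set against it. Nothing about neighbours is read from the count. PPR1 and BRE2 lay at 2.59 and 2.55, TIF4631, a translation initiation factor gene, and GTR2 at 1.77 and 2.03, and MOD5 and RIM20 at 1.42 and 1.68. The other high pairs were SAW1 with DRS2, NUP188 with CAC2 and NOT3 with TED1, each with at least 1 strain measured by 1 tag. Of 69 pairs with a strain 2-fold or more below, 1 pair had both there, HOM6 with HIR3. Apart from members of these pairs and APT2 beside SSN2 (1.03), the measured next neighbours of the 20 highest and 20 lowest strains, leaving out AAD6, whose neighbours were not looked up, lay within 2-fold, such as MAF1 beside RAD57 at −0.18 and AIM21 beside MPH1 at −0.13. A deletion of one gene can disturb the next, and whether it did so in the pairs above was not tested.

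The ISU1 array gave a second set of values for the same strains with another cassette. The sources used here do not say whether it shares the plasmid pool with the SOD2 array, and the dyes of cassette and plasmid were the reverse of those on the SOD2 array, so its values are set beside the others without a measure of likeness. On it 3.23% of strains lay 2-fold or more above the array median and 1.86% below. RAD57 lay at 2.21 there, RAD59 at 2.67, RAD10 at 1.99 and KRE1 at 2.83. MPH1 lay at −1.56, NUM1 at −1.56, EXO1 at −1.31, HOM6 at −2.06 and MET22 at −2.04. Other strains lay farther from the median on the SOD2 array. SWI4 had 2.68 against 1.13, AAT2 2.48 against 0.76, YAF9 2.16 against 0.81, POL32 1.74 against 0.36, RAD18 1.34 against 0.02 and RAD5 1.20 against −0.20. YTA12 had −1.41 against 0.27, and ALT1, an alanine transaminase, −1.19 against −0.21. SRB8 had −0.01 against −1.35, and CDC26, a subunit of the anaphase-promoting complex, −1.09 against −3.32 from 1 tag. With 1 array for each cassette, these differences have no replicate check.

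Expression and length were also set out for the genes at the poles, without a test. In wild-type BY4741 the genes of the high pole had a median log2 expression signal of 10.73 and 10.74 on the 2 arrays (179 genes), those of the low pole 10.67 and 10.73 (54 genes), and all measured strains' genes 10.58 and 10.60. The median gene length in the RefSeq table was 1422 bases for the high pole, 1488 bases for the low pole and 1257 bases for all, so that genes at both poles were longer at the median. The share of strains 2-fold or more above the median ran from 2.41% on chromosome VI to 7.41% on chromosome III, where it was 8 of 108. The share below was highest on chromosome I, at 3 of 61 strains, or 4.92%, against 1.38% of all strains. Those 3 strains, FLC2, GCV3 and FUN30, had 1 tag each, and the part this plays in the share was not tested. For 46 genes the table holds several strains, and their values had a median range of 0.25. In 5 of these genes, MIC19, RPL16B, RPL37B, SIP18 and YNL011C, the strains differed by more than 1 (log2), and the RPL16B strain at 1.17 has a companion at −0.08 from 1 tag. Between the 2 tags of a strain the median difference was 0.25, and in 75 strains the tags lay more than 1 apart. The widest gaps were those of ASC1, with ratios of 1.11 and 4.13, MIY2, with 3.43 and 0.95, and NYV1, with 2.60 and 0.73. Of these only ASC1, a ribosome-bound signalling protein, reached 2-fold as a mean, at 1.01, and it did so through 1 tag.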

How the data were processed

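Barcodes of a pooled deletion library were read on 1 array of 2 colours for the SOD2 cassette, and on another for ISU1. The authors' deposited table gives each barcode feature a linear ratio of the 2 channels, with its direction, scaling and background correction not given in the sources used here. The 2 tags of a strain were recognised by feature numbers 10971 apart, an offset at which 3402 feature pairs name the same gene. Signal intensities were not used here, so precision rests on the tags of 1 array.

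Of 8120 features, 42 had no SOD2 value. Ratios were taken to log2, the array median was subtracted and the tags of a strain averaged. A strain counts as past the threshold at 2-fold. With 1 array there is no test. The wild-type expression signals are deposited log2 values, made with RMA, and limma is also named, per the submitters' processing notes. No column was left without a sample. Gene names come from the platform annotation and gene order from RefSeq.

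The strains, the 48 functional lists and the rules below were chosen with earlier results of these data known, and the 23 complexes after the values of this array had been seen. Named strains are the 20 highest and 20 lowest with a name, 2 tags and both on 1 side, up to 6 per list past 2-fold, the targets with their neighbours, the 3 strains with the widest tag difference, and strains with 1 tag as far out. Others, such as members of complexes, were named after their values were seen. Alternatives changed the centring, the tags used and the threshold. The steps were tested on simulated data. Python 3.11.15, numpy 2.4.6, pandas 2.3.3 and matplotlib 3.10.9 were used.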

Additional observations from a re-analysis of the deposited data

Results flagged for a closer look

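The strain lacking MRPL22, a protein of the mitochondrial ribosome, lay on opposite sides of the median with the 2 cassettes. On the SOD2 array it lay at 0.98, with tags at 1.22 and 0.75. On the ISU1 array it lay at −0.63, with tags at −0.60 and −0.67. Among named strains with 2 tags on each array, it was the 1 strain whose tags all lay 1.5-fold or more above the median on one array and 1.5-fold or more below it on the other. The difference was not tested, since each cassette has 1 array.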

How the results depend on the processing

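Of 10 alternatives to the main processing, those for the centring and the tags were applied to the named strains. No named strain past 2-fold changed sides where it still had a value. The choice of tags could not change a side, since every strain past 2-fold with 2 tags had both on 1 side. Leaving out the centring moved values little, as the array median ratio was 1.06. A value counts as close if it moved by less than the SD of 1 tag, 0.28 (log2). Values of the named strains stayed close to the main ones in 881 cases and moved in 83. Nearly all moves came with the tags of 1 block (28 with the lower-numbered block and 27 with the higher) or the tag nearer to the median (27). Counts of list members past 2-fold stayed within 1.5-fold of the main count in 594 cases and moved further in 78. Unchanged counts of lists without a strain past 2-fold on that side are among those that stayed. The counts of high and low strains moved with the threshold, to 556 and 290 at 1.5-fold and to 57 and 10 at 3-fold. Under the other alternatives the high pole held 156 to 248 strains and the low pole 41 to 78. Of the list medians, 331 values stayed close to the main value and 5 moved. The median of the SMC5-SMC6, SUMO and ubiquitin ligase list changed sign, from −0.29 to 0.023 with strains of 2 tags only and 0.075 with the tags of the higher-numbered block. The N-terminal acetylation and prefoldin list had 0.48, against 0.14 with the tag nearer to the median and 0.12 with the lower-numbered block. The end resection list had −1.03, against −0.66 with the higher-numbered block. The cause was not tested. FUN30 has 1 tag, so it drops out where 2 are required. No paired analysis was possible because the SOD2 cassette has 1 array and its values come from no test. That array has no repeat, its channel signals were not used here, and the spread between transformations is unknown.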

Other observations

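The pathway that activates the transcription factor Rim101, which responds to alkaline pH, lay above the median throughout. It was grouped after its values were seen. Its 9 strains, for 8 genes, ran from 0.53 to 1.86, and 5 of them lay 2-fold or more above the median, where 4.73% of all strains did. YGR122W lay at 1.86 from tag ratios of 4.18 and 3.55, and RIM20, an adaptor for processing of Rim101, at 1.68 from 3.55 and 3.25. The protease gene RIM13 lay at 1.34 and RIM101 itself at 1.15, while the sensor gene RIM21 was lowest at 0.53. The 2 strains of RIM8 lay at 0.85 and 1.05. On the ISU1 array RIM101 lay at 0.04 and RIM13 at 1.12. The ESCRT machinery, on which Rim101 processing depends, had 4 of 15 strains past 2-fold, with VPS36 at 1.10 and STP22 at 1.08 beside SNF7 and VPS4, and 3 of its strains below the median.

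Inositol polyphosphate synthesis, also grouped after its values were seen, had PLC1, the phospholipase C that starts it, at 2.04 from 1 tag and the kinase gene ARG82 at 1.70 from ratios of 3.73 and 3.20. The later kinases lay nearer to the median, with IPK1 at 0.45 from 1 tag and VIP1 at −0.10. In the phosphate list, which holds PLC1 and ARG82, SND3 lay at 1.90 and SPL2, a small regulator of phosphate uptake, at −1.08 from 1 tag.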
